A study of Danio rerio with 18 samples.

Results

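The ErbB and Pdgf receptors are cell-surface tyrosine kinases that bind growth factors, and their transcripts were followed across 18 whole zebrafish (Danio rerio) tumours. Members were chosen by name, with earlier results of these data known. The names egfra, erbb2, erbb3a, erbb3b, erbb4a, erbb4b and pdgfra gave 8 of the 27057 genes in the count table. The name pdgfrb was matched to no row, so that receptor was not analysed here. The gene name table calls egfra EGFR and erbb3a ERBB3, and it gives the name ERBB4 to 3 rows without saying which zebrafish copy each one is. In 12 tumours the fish carried the plasmid sox10-BRAFV600E, in which the sox10 promoter, active in neural crest cells and in glia, drives the oncogene BRAF V600E, an activated form of the kinase BRAF. In 6 tumours the plasmid was mitfa-BRAFV600E, with the promoter of mitfa, the transcription factor gene of the melanocyte lineage. They are called sox10 tumours and mitfa tumours here. All fish were p53-/- and of the Tu background, had been injected as 1-cell embryos, were grown to adulthood and were themselves the founder (F0) generation, so that plasmid-bearing cells form a mosaic with cells that lack it. No age at harvest is given beyond adulthood.

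ErbB receptors work in pairs. EGFR and ERBB4 have both a ligand-binding part and an active kinase, ERBB2 has an active kinase but no known ligand, and ERBB3 binds neuregulins but has little kinase activity of its own, so that it signals through a partner. Neuregulins acting on ERBB3 with ERBB2 are required for the migration and myelination of Schwann cells, and in zebrafish erbb3b is needed for the precursors of adult melanocytes. PDGFRA binds Pdgf ligands and is known from fibroblasts and, in the brain, from precursors of oligodendrocytes.

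The tumours had 14973777 to 21191902 reads assigned to genes. All tumours are labelled melanoma, but markers of pigment cells fell in 10 of 11 tested cases in sox10 tumours, against 22.4% of all genes. Their summed level was 23.7 to 133 CPM in sox10 tumours against 4320 to 18461 CPM in mitfa tumours. CPM are counts per 1000000 reads of the genes that passed a filter on low counts, with TMM factors applied to the library sizes. TYR, the key enzyme of melanin synthesis, had 0.231 to 1.09 CPM in sox10 tumours against 48.4 to 643 CPM in mitfa tumours. Of the tested markers, 5 of 10 for Schwann cells, 9 of 11 for oligodendrocytes, 7 of 11 for radial glia and 13 of 15 for neurons were higher in sox10 tumours, where 21.5% of all genes were. Against this, pmp22a on the Schwann cell list and CSPG4 on the oligodendrocyte list were called lower, at log2 fold changes of -1.82 and -3.97. Summed Schwann cell markers were 6195 to 45822 CPM in sox10 tumours and 111 to 436 CPM in mitfa tumours, and summed oligodendrocyte markers were 4488 to 31502 CPM in sox10 tumours and 81.2 to 271 CPM in mitfa tumours. Sox10 tumours 9 and 10 were more alike than any other pair, with a median squared count difference of 2.42 times sampling noise against 16.5 times for the next pair, and were kept as separate samples. Nothing in the labels says that the tumours came from separate fish, so p-values measure only the spread between these samples. Library names are numbered group by group, so a processing batch and the plasmid cannot be told apart.

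EGFR, both ERBB3 copies and 1 ERBB4 row were higher in sox10 tumours, by 11.4-fold to 67.5-fold, while ERBB2 and PDGFRA did not pass the test. Of the 8 receptor rows, 7 passed the filter on low counts. Of these, 4 were called higher in sox10 tumours, that is, with edgeR's adjusted p below 0.05, and 0 were called lower. Among all 18731 genes tested, 43.9% were called, 21.5% higher and 22.4% lower. No receptor row was lower at an unadjusted p under 0.05 either, nor with DESeq2 or limma. The groups did not overlap for 4 of the 7 rows, which held for 11.8% of all genes. The median log2 fold change was 3.51 over the 7 receptor rows and -0.03 over all genes tested. In whole tumours, fewer cells that express a receptor and less of its RNA per cell cannot be told apart.

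**Figure D1:**
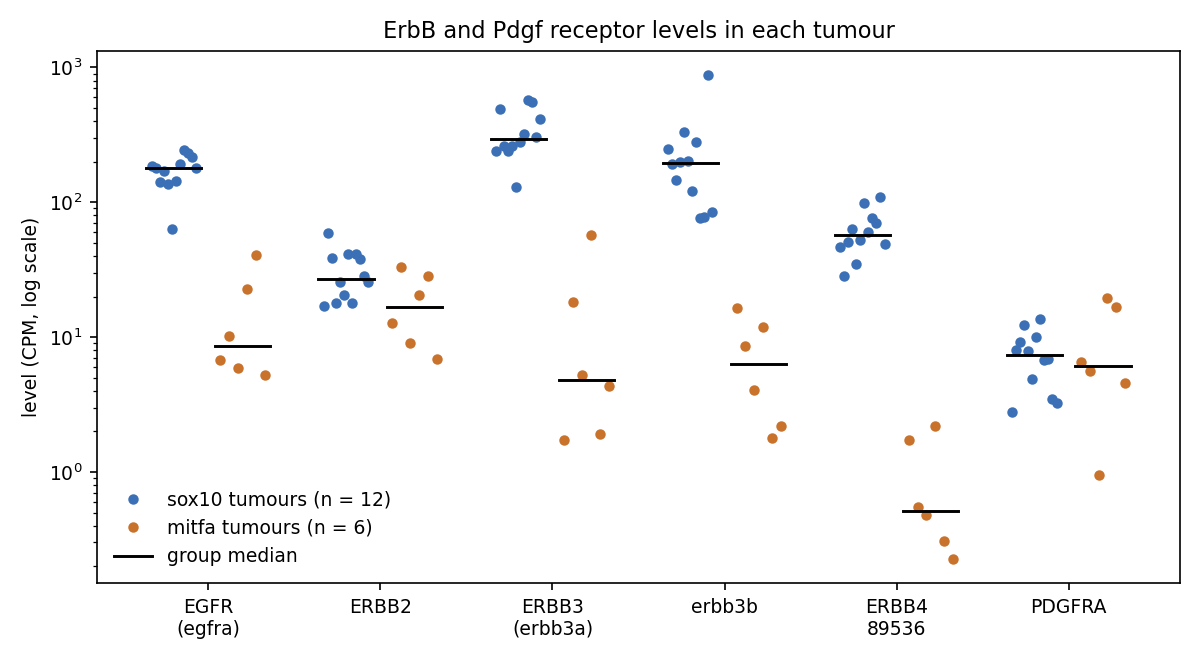
Level of each receptor in each tumour (CPM, log scale), sox10 tumours left of mitfa tumours, with a line at each group's median. The ERBB4 rows ENSDARG00000063207 and ENSDARG00000090408 had mitfa tumours with 0 reads and are not drawn. EGFR, ERBB3, erbb3b and the ERBB4 row ENSDARG00000089536 lie in separate ranges in the groups, and ERBB2 and PDGFRA overlap. Points are spread sideways only to keep them apart.

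EGFR (ENSDARG00000013847), the receptor of EGF and related ligands, had a level of 62.9 CPM in the lowest, 180 CPM in the median and 245 CPM in the highest of 12 sox10 tumours. In mitfa tumours the lowest, median and highest levels were 5.21, 8.55 and 40.3 CPM. The ranges did not overlap, with sox10 tumour 6 the lowest of its group and mitfa tumour 5 the highest of the other. The mean level was 174 ± 49.0 CPM (SD, n = 12) in sox10 tumours and 15.2 ± 13.9 CPM (SD, n = 6) in mitfa tumours, which gave 3.51 ± 0.45 as the log2 fold change (SE, edgeR adjusted p = 5.19e-06). Without mitfa tumour 5 the log2 fold change was 4.095. That tumour had the highest summed muscle, fibroblast and macrophage markers of the 18 tumours, at 18916, 14709 and 4550 CPM. Mitfa tumour 4, next in its group for EGFR at 22.7 CPM, had 129 CPM of muscle markers. The part of these cell types in the EGFR level was not tested. Among sox10 tumours EGFR was the steadiest of the receptors by its coefficient of variation, which was 28.1%.

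ERBB2 (ENSDARG00000026294), the partner without a ligand of its own, had lowest, median and highest levels of 17.2, 26.9 and 59.5 CPM in sox10 tumours. The levels in mitfa tumours were 6.90, 16.7 and 32.9 CPM. The ranges overlapped over much of their length. The log2 fold change was 0.75 ± 0.34 (SE, edgeR adjusted p = 0.0853), and without mitfa tumour 2, the highest of its group, it was 0.99 (edgeR adjusted p = 0.0342). ERBB2 was thus not called with all tumours and was called without that one. That was the only receptor fit that gained a call, and ERBB2 was not called in any of the 14 other settings. Leaving out 1 tumour at a time gave log2 fold changes of 0.56 to 0.99.

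ERBB3 and erbb3b, the zebrafish copies of the neuregulin receptor, were both far higher in sox10 tumours. ERBB3 (ENSDARG00000006202) had lowest, median and highest levels of 130, 293 and 575 CPM in sox10 tumours, against 1.72, 4.80 and 57.0 CPM in mitfa tumours. The groups did not overlap, although mitfa tumour 4 stood well above the others of its group. The log2 fold change of ERBB3 was 4.53 ± 0.73 (SE, edgeR adjusted p = 5.73e-05), and without mitfa tumour 4 it was 5.76.

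The second copy, erbb3b (ENSDARG00000036993), had lowest, median and highest levels of 77.1, 196 and 880 CPM in sox10 tumours. In mitfa tumours these were 1.79, 6.31 and 16.6 CPM. All sox10 tumours were above all mitfa tumours, and sox10 tumour 11 stood far above the next one, sox10 tumour 5 at 335 CPM. The log2 fold change of erbb3b was 4.97 ± 0.69 (SE, edgeR adjusted p = 1.24e-05), a 31.4-fold difference, and it was 4.57 without sox10 tumour 11. The coefficient of variation of erbb3b among sox10 tumours, 92.3%, was above that of ERBB3, 41.1%. Reads that fit both copies may be split or lost, so the division between them is less certain than their joint level.

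The 3 ERBB4 rows differed widely in depth. ERBB4 is a neuregulin receptor with an active kinase. The row ENSDARG00000089536 had 12727 reads in all sox10 tumours together and 91 in all mitfa tumours together. Its lowest, median and highest levels were 28.4, 56.7 and 110 CPM in sox10 tumours and 0.226, 0.512 and 2.199 CPM in mitfa tumours. The groups were far apart, at 6.08 ± 0.54 as the log2 fold change (SE, edgeR adjusted p = 5.57e-08), or 67.5-fold, the largest among the 7 receptor rows tested.

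The row ENSDARG00000090408 had 95 reads in sox10 tumours and 23 in mitfa tumours, at levels of 0.0643 to 0.946 CPM in sox10 tumours and 0 to 0.615 CPM in mitfa tumours. These ranges overlapped, and its log2 fold change of 1.04 ± 0.70 (SE) did not pass the test (edgeR adjusted p = 0.239). The row ENSDARG00000063207, with 156 reads in sox10 tumours and 26 in mitfa tumours, did not pass the filter. Its levels were 0.0602 to 3.63 CPM in sox10 tumours and 0 to 0.752 CPM in mitfa tumours. Tested without the filter, its log2 fold change was 1.59 ± 0.88 (SE, edgeR adjusted p = 0.169). In mitfa tumours with 0 reads of an ERBB4 row, the depth allows a level of up to 0.199 to 0.204 CPM, at 3 reads per library and for counting error only.

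PDGFRA (ENSDARG00000070494) had lowest, median and highest levels of 2.78, 7.40 and 13.6 CPM in sox10 tumours, against 0.953, 6.06 and 19.6 CPM in mitfa tumours. The sox10 tumours lay within the range of the mitfa tumours. Its log2 fold change was -0.28 ± 0.46 (SE, edgeR adjusted p = 0.649), and its sign turned with limma, with a fibroblast score as a covariate and without mitfa tumour 4. The level was highest in mitfa tumours 4 and 5, at 19.6 and 16.9 CPM, and lowest in mitfa tumour 3. Markers of fibroblasts, which express PDGFRA, had summed levels of 3482 and 14709 CPM in mitfa tumours 4 and 5 and of 261 CPM in mitfa tumour 3, the lowest of the 18. The order did not hold throughout, since mitfa tumour 1 had 4307 CPM of these markers and 6.49 CPM of PDGFRA, and sox10 tumour 7, with the lowest sum of its group, had 353 CPM of the markers and 9.98 CPM of PDGFRA. Over the 12 sox10 tumours PDGFRA and the fibroblast score had r = 0.08 (permutation p = 0.815, adjusted p = 0.963) and rho = 0.15 (permutation p = 0.637, adjusted p = 0.82), and r = 0.78 without the 2 tumours farthest from the median score. Over the groups these markers summed to 353 to 3375 CPM in sox10 tumours and 261 to 14709 CPM in mitfa tumours. Of them, 9 of 18 tested were lower in sox10 tumours, against 22.4% of all genes. With the fibroblast score as a covariate, the log2 fold change of PDGFRA was 0.34 and still did not pass the test (edgeR adjusted p = 0.654).

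The 4 receptor rows that were higher were also fitted with measures that differed between the groups as covariates. Reads outside annotated genes made up 11.1% to 17.4% of reads in sox10 tumours and 9.46% to 12.8% in mitfa tumours. With that share as a covariate the log2 fold change was 3.17 for EGFR, 3.82 for ERBB3, 4.42 for erbb3b and 5.42 for ERBB4 (ENSDARG00000089536). With the fibroblast score as a covariate these were 4.11, 4.64, 4.93 and 6.06 in the same order, and all 4 rows were called in both fits. The Schwann cell and oligodendrocyte markers given above were higher in sox10 tumours along with these receptors. So were radial glia markers, with summed levels of 1740 to 6911 CPM in sox10 tumours and 247 to 1461 CPM in mitfa tumours, and neuron markers, with 511 to 1922 CPM in sox10 tumours and 26.4 to 306 CPM in mitfa tumours. Mural cell markers were lower in 7 of 13 tested cases, against 22.4% of all genes. Their summed levels were 123 to 275 CPM in sox10 tumours and 302 to 581 CPM in mitfa tumours. CSPG4, named above from the oligodendrocyte list, is also on the mural list and is counted among the 7. Its mean level was 4.85 CPM in sox10 tumours and 76.4 CPM in mitfa tumours. The part of these cell types in the receptor differences was not tested.

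**Figure D2:**
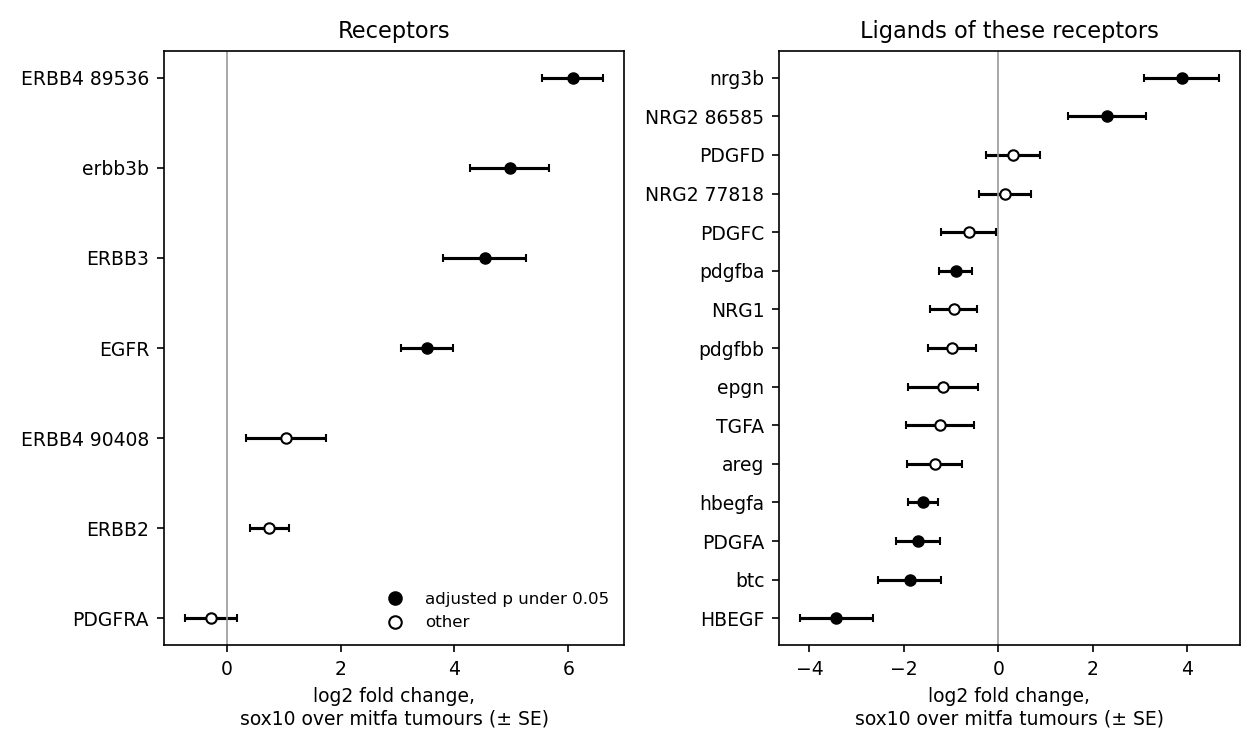
Log2 fold change of each tested receptor row (left) and of each tested ligand (right), sox10 over mitfa tumours, with bars of ± 1 SE and filled points where edgeR's adjusted p was under 0.05. The digits after a repeated name are the end of its Ensembl identifier. EGFR, ERBB3, erbb3b and 1 ERBB4 row lie at 3.51 to 6.08. Of the ligands, 5 of 10 ErbB rows and 3 of 5 Pdgf rows are not called.

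Receptor use was described as each gene's share of all reads of the 7 ErbB rows in a tumour. Transcript lengths were not used, so a share may be compared between tumours but not between genes. These 7 rows summed to 467 to 1540 CPM in sox10 tumours, with a median of 776 CPM, and to 19.2 to 115 CPM in mitfa tumours, with a median of 55.2 CPM. The share of ERBB2 set the groups apart. It was 1.83% to 6.23% in sox10 tumours and 17.9% to 46.5% in mitfa tumours, in ranges that did not overlap. The difference in its level had not passed the test, whereas EGFR, both ERBB3 copies and 1 ERBB4 row were called higher in sox10 tumours.

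The EGFR share was 13.5% to 25.2% in sox10 tumours and 14.5% to 54.7% in mitfa tumours, with medians of 22.1% and 21.7% in that order. The groups overlapped, and mitfa tumour 5 alone set the upper end. The ERBB3 copies together held 58.1% to 77.0% of ErbB reads in sox10 tumours and 5.01% to 59.8% in mitfa tumours, ranges that met only at mitfa tumour 4. All ERBB4 rows together held 3.07% to 15% in sox10 tumours, with a median of 7.24%, and 1.31% to 4.67% in mitfa tumours, with a median of 2.27%. On the log2 scale, the ratio of ERBB2 to EGFR reads was -3.44 to -1.60 in sox10 tumours and -0.51 to 1.68 in mitfa tumours. That ratio also kept the groups apart.

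**Figure D3:**
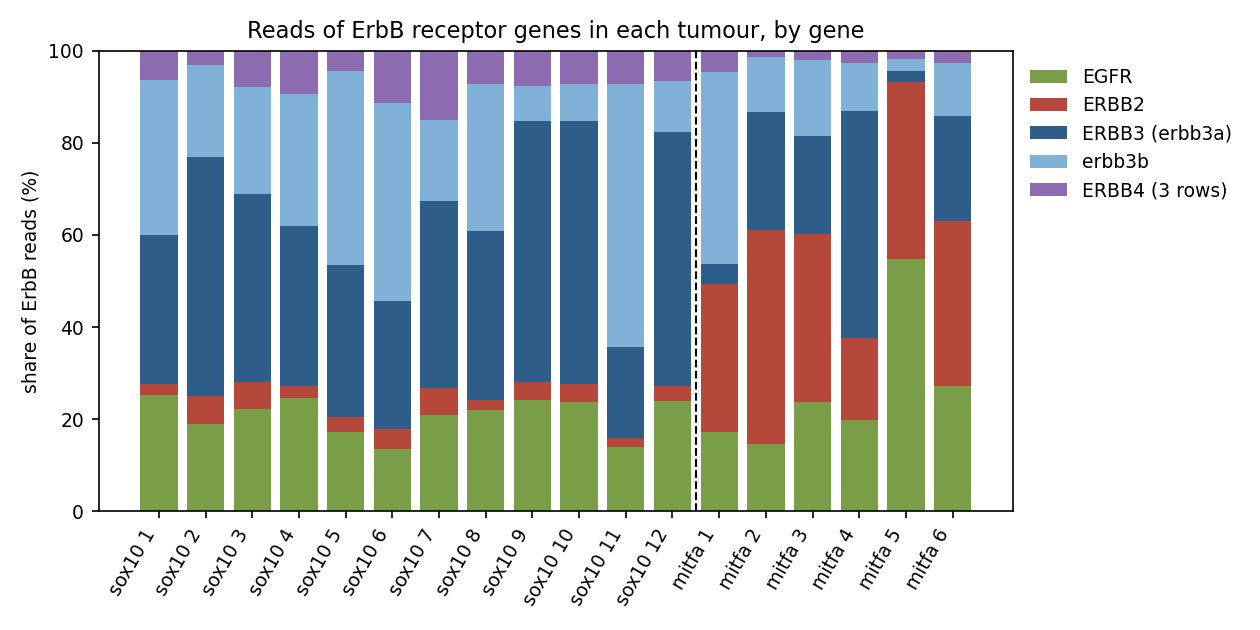
Share of each ErbB gene in the reads of all 7 ErbB rows (percent), 1 bar per tumour, sox10 tumours left of the dashed line and mitfa tumours right of it. ERBB2 takes 1.83% to 6.23% in sox10 tumours and 17.9% to 46.5% in mitfa tumours, and the split between ERBB3 and erbb3b changes from tumour to tumour within both groups.

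The balance of the ERBB3 copies varied widely within both groups. The log2 ratio of erbb3b to ERBB3 was -2.90 to 1.52 in sox10 tumours and -2.25 to 3.27 in mitfa tumours. Among sox10 tumours, 9, 10 and 12 had the lowest erbb3b levels, 77.1, 78.0 and 84.2 CPM, and high ERBB3 levels of 575, 559 and 418 CPM. Tumour 11 showed the opposite, with 880 CPM of erbb3b and 306 CPM of ERBB3. The levels of the copies had r = -0.44 (permutation p = 0.148, adjusted p = 0.554) and rho = -0.53 (permutation p = 0.0793, adjusted p = 0.446) over the 12 sox10 tumours, on log2 CPM. An inverse relation of the copies therefore did not pass the test.

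**Figure D4:**
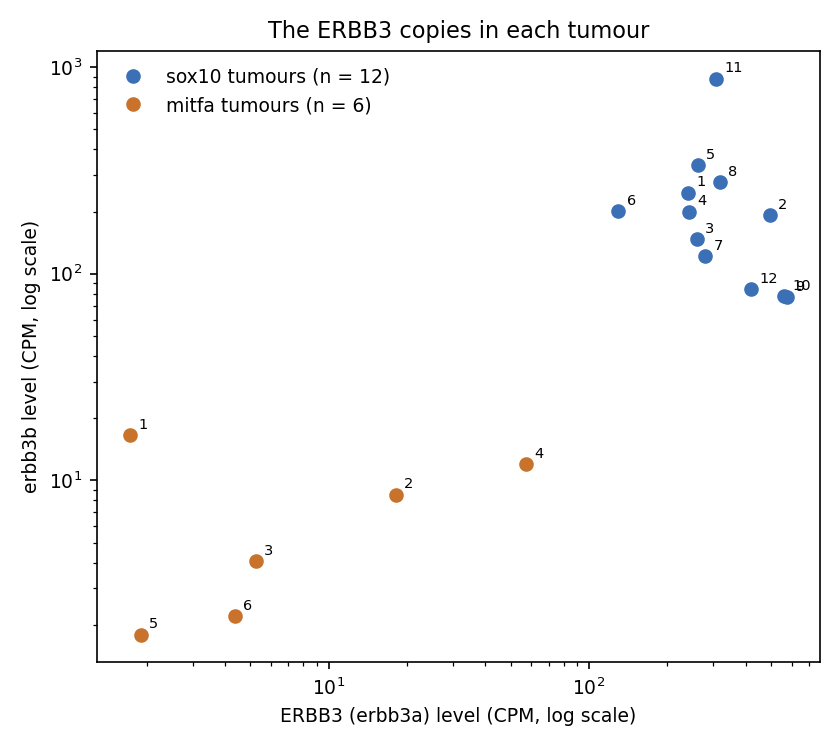
Level of erbb3b against the level of ERBB3, the erbb3a copy, in each tumour (CPM, both axes on a log scale, numbers are tumour numbers). All 12 sox10 tumours lie at or above 77.1 CPM of erbb3b and 130 CPM of ERBB3, tumours 9, 10 and 12 low on erbb3b and tumour 11 high, and all 6 mitfa tumours lie below both.

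Of 21 pairs of receptor rows, compared over the 12 sox10 tumours after the values were seen, ERBB3 and EGFR had the closest relation. Pearson's r was 0.83 (permutation p = 0.00098, adjusted p = 0.0206), while Spearman's rho was 0.71 (permutation p = 0.0136, adjusted p = 0.286). Without the 2 tumours farthest from the median r was 0.57. With tumours 9 and 10 summed into 1 library r was 0.81 (permutation adjusted p = 0.0764), so the call rested on counting both.

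Receptor levels were also compared with marker scores over the 12 sox10 tumours, for markers of Schwann cells, oligodendrocytes, radial glia, fibroblasts, epidermis and muscle. Of 42 pairs, 0 passed after adjustment with either r or rho. At an unadjusted p under 0.05 there were 4 pairs by r and 4 by rho. Of the 4 by r, 2 were those of EGFR and ERBB3 with muscle. The muscle scores fell into separate sets of 5 and 7 tumours, so these relations are given only within the set of 7. That set includes tumours 9 and 10, the most alike pair. There r was -0.08 for EGFR and muscle (exact permutation p = 0.865, adjusted p = 0.946 over 7 receptor rows) and 0.04 for ERBB3 and muscle (exact permutation p = 0.946, adjusted p = 0.946). In the same order rho was 0.29 (exact permutation p = 0.556, adjusted p = 0.906) and 0.07 (exact permutation p = 0.906, adjusted p = 0.906). Without the 2 tumours farthest from the median score r was 0.46 for EGFR and -0.20 for ERBB3. Closest to muscle in that set was the sparse ERBB4 row ENSDARG00000090408, at r = 0.84 (exact permutation p = 0.0133, adjusted p = 0.0931). For that row rho was 0.89 (exact permutation p = 0.0123, adjusted p = 0.0861), and r was 0.53 without the 2 farthest tumours. Outside muscle, PDGFRA had the closest relation, with the radial glia score, at r = 0.74 (permutation p = 0.00668, adjusted p = 0.14) and rho = 0.75 (permutation p = 0.00712, adjusted p = 0.167). Without the 2 tumours farthest from the median score r was 0.63. EGFR and the radial glia score ran the other way, at rho = -0.69 (permutation p = 0.017, adjusted p = 0.239). For that pair r was -0.47 (permutation p = 0.122, adjusted p = 0.472), and -0.53 without the 2 farthest tumours. The level of erbb3b and the oligodendrocyte score had r = 0.63 (permutation p = 0.0274, adjusted p = 0.288) and rho = 0.62 (permutation p = 0.0351, adjusted p = 0.369), and r = 0.35 without the 2 farthest tumours, so that relation rested on those tumours.

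Of 11 listed rows of ErbB ligands, 10 were tested, of which 2 were called higher, 3 lower and 5 not at all, with a median log2 fold change of -1.20. The counts are near the background of 21.5% higher and 22.4% lower over all genes. Among neuregulins, nrg3b had levels of 0.583 to 8.25 CPM in sox10 tumours and 0 to 0.615 CPM in mitfa tumours. It rose in sox10 tumours (log2 fold change 3.88 ± 0.79 SE, edgeR adjusted p = 0.000563), and the ranges met only at their ends. NRG2 (ENSDARG00000086585) had levels of 1.36 to 27.7 CPM in sox10 tumours and 0.199 to 10.4 CPM in mitfa tumours, with mitfa tumour 5 far above the rest of its group. Its log2 fold change was 2.31 ± 0.83 (SE, edgeR adjusted p = 0.0303). It was 4.34 without mitfa tumour 5, and the call was lost without mitfa tumour 1, 2, 3, 4 or 6, with log2 fold changes of 2.07, 2.11, 2.09, 2.12 and 2.14.

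The other NRG2 row (ENSDARG00000077818) had a log2 fold change of 0.14, whose sign turned under 3 of the alternatives and when mitfa tumour 1, 3 or 6 was left out. NRG1, the ligand best known from Schwann cells, had a log2 fold change of -0.94 (edgeR adjusted p = 0.135) and 0.14 without mitfa tumour 1. None of the differences of these neuregulin rows was called.

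The EGF-like ligands, which bind EGFR, had values on the lower side in sox10 tumours in all 6 tested rows. Of these, 3 were called lower, against 22.4% of all genes, and so few rows are no result about the group. HBEGF, TGFA and epgn turned sign in 1 alternative fit each. The copy hbegfa had lowest, median and highest levels of 4.60, 6.58 and 12.4 CPM in sox10 tumours and 10.9, 19.9 and 56.7 CPM in mitfa tumours. It fell in sox10 tumours (log2 fold change -1.59 ± 0.32 SE, edgeR adjusted p = 0.000449), with ranges that overlapped at their ends. With tumours 1 to 6 of each group and the replicate number as a block its adjusted p was 0.0636.

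HBEGF (ENSDARG00000031246) had lowest, median and highest levels of 1.37, 3.65 and 10.9 CPM in sox10 tumours and 1.70, 6.26 and 183 CPM in mitfa tumours. Its log2 difference of -3.43 ± 0.77 (SE, edgeR adjusted p = 0.00144) rested on mitfa tumours 1 and 5, at 120 and 183 CPM, and turned to 0.25 without them. The ligand btc had a log2 difference of -1.87 ± 0.67 (SE, edgeR adjusted p = 0.029), and this call was lost without mitfa tumour 2, at -1.62, or 4, at -1.73. The rows of TGFA, areg and epgn were not called, at log2 fold changes of -1.24, -1.35 and -1.16. Leaving out 1 mitfa tumour moved these to -0.58 for TGFA without tumour 1, -0.16 for areg without tumour 4 and -0.40 for epgn without tumour 2.

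Of the 5 Pdgf ligands, 2 were called lower and 3 were not called, with a median log2 fold change of -0.91. Over all genes 22.4% were lower, and 43.9% were called in either direction. None was higher in edgeR at an adjusted or unadjusted p under 0.05, nor called higher with DESeq2 or limma. PDGFA, a ligand of PDGFRA, had lowest, median and highest levels of 3.52, 5.79 and 15.7 CPM in sox10 tumours and 3.40, 13.01 and 68.8 CPM in mitfa tumours. The groups overlapped, and mitfa tumour 1 stood apart. The log2 fold change of PDGFA was -1.71 ± 0.46 (SE, edgeR adjusted p = 0.00573), and -0.92 without mitfa tumour 1 (edgeR adjusted p = 0.0748). That of pdgfba was -0.91 ± 0.36 (SE, edgeR adjusted p = 0.046), a call lost when any of 12 of the 18 tumours was left out, at -0.59 without mitfa tumour 1. PDGFC, PDGFD and pdgfbb had log2 fold changes of -0.63, 0.32 and -0.98.

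Of 20 tested genes that cut, degrade or dampen the receptors and their ligands, 6 were called higher, 4 lower and 10 were not called, with a median log2 fold change of -0.04. These counts lie near the shares over all genes, 21.5% higher and 22.4% lower, and are no result about the group. BACE1, a protease that cuts neuregulins in mammalian nerves, rose in sox10 tumours by 3.72 ± 0.49 on the log2 scale (SE, edgeR adjusted p = 7.38e-06), with 11.1 to 70.7 CPM in sox10 tumours and 0.509 to 4.31 CPM in mitfa tumours. Its relative BACE2, which in zebrafish acts on pigment cells, went the other way, with 1.96 to 8.43 CPM in sox10 tumours and 201 to 600 CPM in mitfa tumours (log2 fold change -6.32 ± 0.33 SE, edgeR adjusted p = 6.91e-11). Neither gene's groups overlapped.

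ERRFI1, a feedback inhibitor of ErbB kinases, was higher, with 9.51 to 59.3 CPM in sox10 tumours and 1.70 to 8.97 CPM in mitfa tumours (log2 fold change 2.54 ± 0.46 SE, edgeR adjusted p = 0.000213). CBL, a ubiquitin ligase that marks active receptors for breakdown, and adam10b, a sheddase, were higher at log2 fold changes of 2.06 and 1.501. The call of adam10b was lost in the fit with the outside-gene read share as a covariate. Its copy adam10a, at a log2 fold change of -0.19, was not called. The mean level of adam10a was 250 CPM in sox10 tumours and 286 CPM in mitfa tumours. Both ADAM17 rows, sheddases of EGFR ligands, were lower, at -1.53 for ENSDARG00000043213 and -1.67 for ENSDARG00000093093. RHBDF1 (ENSDARG00000036541), a partner that ADAM17 needs to mature, was lower at -2.77, and the other RHBDF1 row was not called, at -0.49. The regulators LRIG1, LRIG2, LRIG3 and ERBIN were not called.

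Among adaptors and effectors that dock on active receptors, 9 of 30 tested were called higher, 7 lower and 14 were not called, with a median log2 fold change of -0.09. Over all genes 21.5% were higher and 22.4% lower, so these counts too are near the background. SHC3, an adaptor known from neurons, was higher, with 42.9 to 204 CPM in sox10 tumours and 3.39 to 32.6 CPM in mitfa tumours (log2 fold change 3.09 ± 0.49 SE, edgeR adjusted p = 4.78e-05). The related shc2 was lower, with 0.948 to 3.31 CPM in sox10 tumours and 5.998 to 59.6 CPM in mitfa tumours (log2 fold change -3.97 ± 0.38 SE, edgeR adjusted p = 1.19e-07). The pair did not overlap between groups in either case. PIK3R3, a regulatory subunit of PI3-kinase, was higher at 2.44, and PIK3CA, a catalytic subunit, lower at -1.39. NCK2 (ENSDARG00000018206) and RASA1 (ENSDARG00000073665) were higher at 1.83 and 0.92, and GRB10 (ENSDARG00000002013) and NCK1 (ENSDARG00000075369) were lower at -2.86 and -0.94. The copy pik3r3a and the other rows of NCK2, RASA1, GRB10 and NCK1 were not called, at -0.13, -0.10, 0.29, -0.10 and -0.11.

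The 5 other listed receptor rows of the class that PDGFRA belongs to were all called, 2 higher and 3 lower in sox10 tumours. Over all genes 43.9% were called. KIT, the receptor that melanocytes depend on, had lowest, median and highest levels of 0.453, 2.69 and 4.92 CPM in sox10 tumours and 14.1, 135 and 246 CPM in mitfa tumours. It fell in sox10 tumours without overlap (log2 fold change -5.63 ± 0.55 SE, edgeR adjusted p = 1.80e-07). The macrophage and pigment cell receptor csf1ra and the blood cell receptor flt3 were lower at -1.41 and -1.39, and kitb and csf1rb were higher at 1.87 and 1.25. The call of kitb was lost in 4 of 31 alternative fits and that of csf1rb in 14 of 32. Macrophage markers were lower in 10 of 15 tested cases, against 22.4% of all genes. Their summed levels were 1316 to 3180 CPM in sox10 tumours and 2120 to 4550 CPM in mitfa tumours. Because csf1ra is itself on this marker list, both the count and the sums contain it. The part of macrophages in the csf1ra difference was not tested.

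The genes whose pattern within the groups was most like each receptor's were found by the root mean squared difference of log2 CPM from the group means over 18 tumours. Only genes with a gene name were searched, and clone-type names were left out. For ERBB3, whose own root mean squared deviation was 1.12, these were nova1, EEIG1 and PLEKHA6, at differences of 0.45, 0.53 and 0.58. For EGFR, with an own deviation of 0.74, they were SPPL3, SMAD2 and irs4a, at 0.37, 0.38 and 0.38. The pattern of erbb3b had no searched gene as near, with TOX3 nearest at 0.72 against an own deviation of 1.04, then SERP1 and AK3 at 0.77 each. The group differences of these neighbours were not those of the receptors in every case. EEIG1, for example, had a log2 fold change of 0.10 (edgeR adjusted p = 0.889), against 4.53 for ERBB3.

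ERBB2, with an own deviation of 0.66, was nearest to TOM1L2, FERMT2 and MGRN1, at 0.35, 0.35 and 0.41. ERBB4 (ENSDARG00000089536), at 0.74, was nearest to GSK3B, GLG1 and hmox2b, at 0.47, 0.48 and 0.51, and the sparse ERBB4 row ENSDARG00000090408, at 0.92, to ZNRF1, arhgap36 and hadhaa, at 0.44, 0.52 and 0.52. PDGFRA, with an own deviation of 0.99, was nearest to HSPG2, which encodes a proteoglycan of basement membranes, and to NAV3 and its family's ligand PDGFD, at 0.53, 0.54 and 0.54.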

How the data were processed

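RNA was made from entire tumours, per the labels' protocols. The authors deposited raw read counts per Ensembl gene for 18 tumours. FastQC, Trimmomatic, STAR, DESeq2 and the build GRCz10 appear in the submitters' processing notes, without versions. Strand setting and annotation release are unstated, so reads of overlapping genes cannot be separated. The table's 4 entries that name no gene (unmapped, multimapping, outside genes, ambiguous) did not count toward library sizes or tests. Reads outside genes were 9.46% to 17.4% per library, multimapping reads 1.94% to 3.08% and ambiguous reads 1.58% to 2.12%. Depth was 14973777 to 21191902 reads assigned to genes. A table of identifiers named 24020 genes. Receptor and list names were matched exactly, else ignoring case, else without the copy letter, and 201 of 217 list names matched. Members and lists were chosen with earlier results of these data known.

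Counts were filtered with filterByExpr (count minimum 10, total minimum 15), TMM-scaled and passed to the robust quasi-likelihood test of edgeR 4.0.16 (R 4.3.3), sox10 minus mitfa tumours, without covariates and with Benjamini-Hochberg adjustment over 18731 genes at 0.05. The SE was the absolute log2 fold change over the root of the F statistic. Tested on simulated data of 18522 genes, with 67 changed 2-fold, 65 changed 4-fold and 65 changed 16-fold, the comparison gave 105 calls, 1 of them false. The share of changed genes found was 8.96% at 2-fold, 61.5% at 4-fold and 89.2% at 16-fold. Far fewer genes changed in the simulation than were called in the data. The adjusted p depends on that number, so these shares need not hold for the data. Correlations used log2 CPM with a prior count of 2 and 2-sided permutation tests with 100000 resamples, adjusted over 42 receptor and marker pairs or 21 receptor pairs, and an exact test over 7 receptor rows within 7 tumours alike in muscle score, added after seeing the data. A marker score was the mean log2 CPM of the list's detected members.

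Named genes were all receptor rows, all tested ligands, up to 4 called members per direction with the smallest adjusted p from the regulator, adaptor and related receptor lists, and the 3 nearest genes per receptor. The nearest genes were sought only among genes with a gene name, without clone-type names. The regulators, adaptor rows and other copies named as not called were picked after their values were seen. From the marker lists TYR, pmp22a and CSPG4 were named outside the rule given here. Alternatives were DESeq2 1.42.0, limma 3.58.1 with sample weights, other scaling factors, filters and dispersion, covariates, a replicate block, and tumours left out or summed. Receptor use per kilobase, as first planned, was replaced by read shares because no transcript lengths were used here.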

Additional observations from a re-analysis of the deposited data

Results flagged for a closer look

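Among mitfa tumours, single values that stood far from the rest of the group, by Dixon's test at its 95% critical value for 6 samples, were found in 9 of the 23 receptor and ligand rows tested. For normally distributed values chance alone gives about 1 in 20 such groups. The test was run on CPM, not on log values, and CPM were often skewed, so that rate need not hold here. The rows also share the same 6 tumours. Sox10 tumours, at 12, were too many for this test. Among receptors, mitfa tumour 4 was apart for ERBB3 at 57.0 CPM, and mitfa tumour 5 for the sparse ERBB4 row ENSDARG00000090408 at 0.615 CPM. Among ErbB ligands, mitfa tumour 4 was apart for areg at 7.93 CPM, mitfa tumour 5 for hbegfa at 56.7 CPM and for NRG2 (ENSDARG00000086585) at 10.4 CPM, mitfa tumour 2 for epgn at 7.71 CPM and mitfa tumour 1 for NRG1 at 13.3 CPM. Among Pdgf ligands, mitfa tumour 1 was apart for PDGFA at 68.8 CPM and mitfa tumour 4 for PDGFC at 2.78 CPM.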

How the results depend on the processing

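EGFR, ERBB3, erbb3b and ERBB4 (ENSDARG00000089536) were called higher in all 14 other settings and with each tumour left out, with log2 fold changes of 3.17 to 4.11, 3.82 to 5.76, 4.42 to 5.37 and 5.42 to 6.56 in that order. Leaving out 1 tumour gave 4 to 5 receptors called higher and 0 called lower, and 3528 to 4017 genes higher and 3681 to 4217 lower over all genes. With the outside-gene read share as a covariate 2432 genes were higher and 2489 lower.

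With the replicate number as a block, in tumours 1 to 6 of each group, 2279 genes were higher and 2216 lower. Without the block the same tumours gave 2539 genes higher and 3040 lower, in a fit added after seeing the data. The labels do not say that a number pairs tumours. Deviations of same-numbered tumours correlated at -0.31 to 0.17, and 3 of 6 sox10 tumours were closest to the mitfa tumour of their number, and 1 of 6 the other way round. The receptor calls were the same with the block, and of the ligands fitted there hbegfa, HBEGF, PDGFA and pdgfba lost theirs.

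Signs turned for the following uncalled or fragile log2 fold changes, and the cause was not tested. PDGFRA was 0.10 with limma and 0.34 with the fibroblast score as a covariate, and -0.53 to 0.10 with 1 tumour left out. Without mitfa tumours 1 and 5, HBEGF was 0.25, TGFA 0.0139, NRG1 0.19, pdgfbb 0.81 and NRG2 (ENSDARG00000077818) -0.0359. That NRG2 row was also -0.10 in tumours 1 to 6 without a block and -0.40 with the outside-gene covariate, which gave -0.69 for PDGFD. The value of pdgfbb was 0.0129 with limma, and that of epgn 0.0257 with the epidermis score as a covariate. Leaving out 1 tumour gave -1.13 to 0.14 for NRG1 and -0.11 to 0.89 for this NRG2 row. Over all ligand fits 398 kept both their sign and whether they were called. With the sign kept, 44 lost a call and 7 gained one, and 14 turned sign. Receptor and marker correlations numbered 0 after adjustment in all 4 other settings and with each tumour left out.

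The sparse ERBB4 rows rest on few reads. Simulated 2-fold changes were mostly missed, but far fewer genes changed in the simulation than were called here, so that miss rate need not hold for these data.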
